A study of Mus musculus with 32 samples.

Results

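Glutathione and antioxidant defence genes were followed in the hearts of 32 individual C57BL/6 mice from a laboratory model of posttraumatic stress disorder. The set held 41 genes: 21 glutathione transferases, 4 genes of glutathione synthesis and reduction, 8 genes of the thioredoxin system, 3 glutathione peroxidases, 3 superoxide dismutases, catalase (Cat) and heme oxygenase (Hmox1). They were found by the gene name that the array design gives each probe. A total of 60 probes carried such a name and 59 passed a filter on dim probes. All 41 genes were among the 27528 genes tested, each through its brightest probe, and each of those probes was well above background on all 4 arrays of every group.

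Stressed mice were confined in a mesh box in the cage of an aggressor mouse for 6 hours on each stress day and were attacked directly for short spells. Controls were placed in mesh boxes in a large cage that held no aggressor. The 4 conditions were 5 days of stress and 1 day of rest (T5R1), 5 days of stress and 10 days of rest (T5R10), 10 days of stress and 1 day of rest (T10R1), and 10 days of stress and 42 days of rest (T10R42). Each condition had its own 4 stressed and 4 control mice, 8 groups in all. Sex and age are not given in the sources used here. The questions the design poses are whether the stressed hearts differed from their own controls in each condition, and whether that difference changed with more rest or more stress.

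Glutathione is a small thiol that cells make from glutamate, cysteine and glycine, with glutamate-cysteine ligase as the controlling step. Glutathione transferases join it to reactive compounds, glutathione peroxidases spend it to reduce peroxides, and glutathione reductase restores it with NADPH. Thioredoxin and the peroxiredoxins form a parallel thiol system, while superoxide dismutases and catalase act on superoxide and hydrogen peroxide. Many of these genes are known targets of the transcription factor NRF2, and in the heart they are best known for limiting oxidant damage around the mitochondria.

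Between 28792 and 40670 probes an array were well above background, and arrays within a group correlated pairwise between 0.9821 and 0.9943. Levels are log2 signal relative to each array's 75th percentile, so a level of 0 is that percentile. A slide held the 8 hearts of 1 condition, which means that the condition cannot be told apart from its slide. The T10R1 slide was also scanned on another day than the rest. Controls filled columns 1 and 2 of each slide and stressed hearts columns 3 and 4, so array column and stress cannot be told apart either. The scanner software marked 3 arrays for evaluation, namely T5R10 control replicate 4 and T5R10 stressed replicates 1 and 2. All 10 cardiomyocyte markers tested were well above background on the 4 arrays of every group.

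After 5 days of stress and 1 day of rest, 6 of 7 mu class and 2 of 4 alpha class glutathione transferases fell in stressed hearts, as did Gstt1, Mgst3 and Sod1, while Gclm, Gpx1 and Sod3 rose. Of the 41 genes, 14 passed the test in T5R1 (limma, Benjamini-Hochberg adjusted p below 0.05 over all genes tested), which is 34.1% against 13.7% of all genes tested. Of these, 3 rose and 11 fell. For comparison, 5.3% of all genes rose and 8.43% fell. Stressed and control hearts did not overlap in 15 of the 41 genes (36.6%) in T5R1, against 22.3% of all genes tested. Fitted on the 8 arrays of T5R1 alone, 8 genes passed, and without T5R1 stressed replicate 1, 7 passed. Measured values were lower in 29 of the 41 genes, with a median of -0.16 against -0.12 over all genes tested, so the changes here are to be read against that shift. With quantile normalization, 4 rose and 8 fell. The authors' deposited values gave the same split, and centring each array on the median gene gave 4 and 7. The lower share of all called genes turned with that choice: 2320 of 3778 were lower as reported and 1103 of 3022 with quantile normalization.

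**Figure D1:**
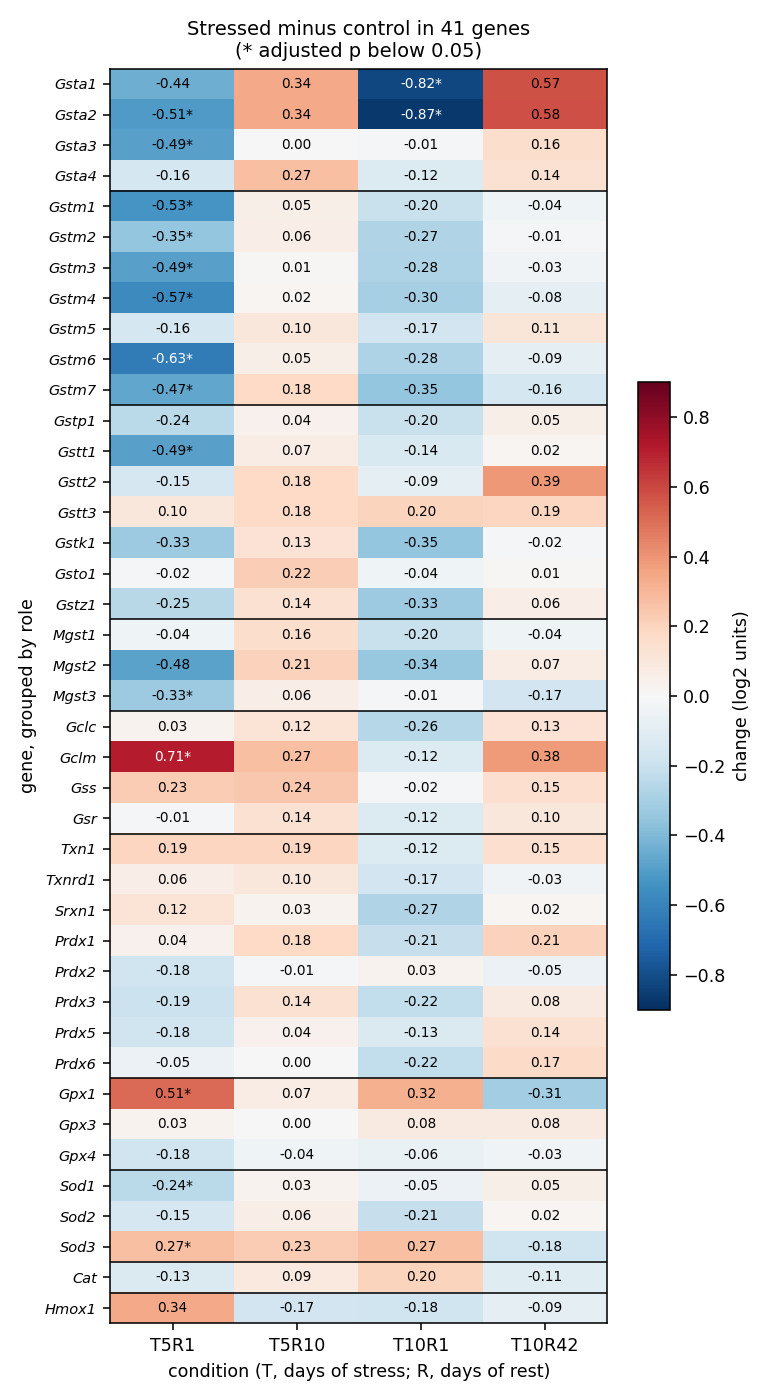
Change in each of the 41 genes (rows, grouped by role) in the 4 conditions (columns), in log2 units, stressed minus control, each from 4 stressed and 4 control hearts. Blue is lower and red higher in stressed hearts, and an asterisk marks an adjusted p below 0.05 (limma); 14 genes are marked in T5R1, 2 in T10R1 and none in T5R10 or T10R42.

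The mu class is a family of cytosolic transferases that conjugate glutathione to electrophiles, and its genes lie side by side in the mouse genome. In T5R1, 6 of its 7 genes fell (Gstm1, Gstm2, Gstm3, Gstm4, Gstm6 and Gstm7). Gstm1, the most strongly supported of them, had control levels of 5.25, 5.15, 5.10 and 5.14 and stressed levels of 4.50, 4.76, 4.60 and 4.65. Every stressed heart was below every control. The difference was -0.53 ± 0.08 (SE, n = 4 a group, limma adjusted p = 8.25e-05), which is 1.45-fold lower. A second Gstm1 probe gave -0.37 ± 0.11 (limma adjusted p = 0.0259 over probes).

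Gstm3 had control levels of 3.22, 3.13, 2.95 and 3.03 and stressed levels of 2.57, 2.71, 2.34 and 2.77, with no overlap. Its difference was -0.49 ± 0.10 (limma adjusted p = 0.00263). Gstm6 was the mu gene with the largest measured change: its controls lay at -0.09, -0.21, -0.44 and -0.33 and its stressed hearts at -0.63, -0.67, -1.39 and -0.90, a difference of -0.63 ± 0.14 (limma adjusted p = 0.00366). Again no stressed heart reached the control range, and the other 2 Gstm6 probes also passed, at -0.50 and -0.70. Gstm4 had control levels of 1.42, 1.25, 1.26 and 1.20 and stressed levels of 0.70, 0.96, 0.42 and 0.76, a difference of -0.57 ± 0.12 (limma adjusted p = 0.00302). That fall rests on 1 probe, since the other Gstm4 probe gave -0.01 ± 0.09.

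Gstm2 and Gstm7 fell by 0.35 and 0.47 (limma adjusted p = 0.0079 and 0.0158). For Gstm2, 1 of its 3 probes gave -0.08 and did not pass, and without T5R1 stressed replicate 1 the Gstm7 call was lost (adjusted p = 0.0679). Gstm5, the seventh, had controls at 3.08, 3.15, 3.13 and 3.09 and stressed hearts at 2.89, 2.96, 2.81 and 3.13. Its groups overlapped and the difference of -0.16 did not pass (limma adjusted p = 0.331). Under all 6 scalings tried, the 7 mu genes were measured lower in T5R1, and 5 or 6 of them passed.

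On the mm9 build, the array design places the probes used for Gstm2 to Gstm7 on chromosome 3, from Gstm5 at chr3:107701101-107701160 to Gstm4 at chr3:107846495-107846847. The Gstm1 probe with the brighter signal is placed on another chromosome, at chr5:117082490-117082549, while the second Gstm1 probe lies at chr3:107815595-107815654. Mu genes are close in sequence, so cross-hybridisation between them cannot be told apart from separate changes. Among all probes of the mu genes, the closest pairs were those of the Gstm7 probe used. It matched the Gstm3 probe used at 40 of 59 aligned bases and a Gstm6 probe not used at 41 of 55. Probes were compared with one another and not with the transcripts of other genes.

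Gstt1, a theta class transferase, moved with the mu genes. Its controls were at 3.69, 3.52, 3.49 and 3.44 and its stressed hearts at 2.84, 3.07, 3.1 and 3.17, a difference of -0.49 ± 0.09 (limma adjusted p = 0.000725). The groups did not overlap. Its chromosome 10 neighbours Gstt2 and Gstt3 gave -0.15 and 0.10 and did not pass. Among the remaining cytosolic and mitochondrial transferases, Gstp1 (pi class), Gstk1 (the mitochondrial kappa class), Gstz1 (zeta class) and Gsto1 (omega class) gave -0.24, -0.33, -0.25 and -0.02, none of which passed. A second Gstp1 probe did pass, at -0.41 ± 0.09 (limma adjusted p = 0.0028 over probes), as did the probe of its copy Gstp2, at -0.41.

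**Figure D2:**
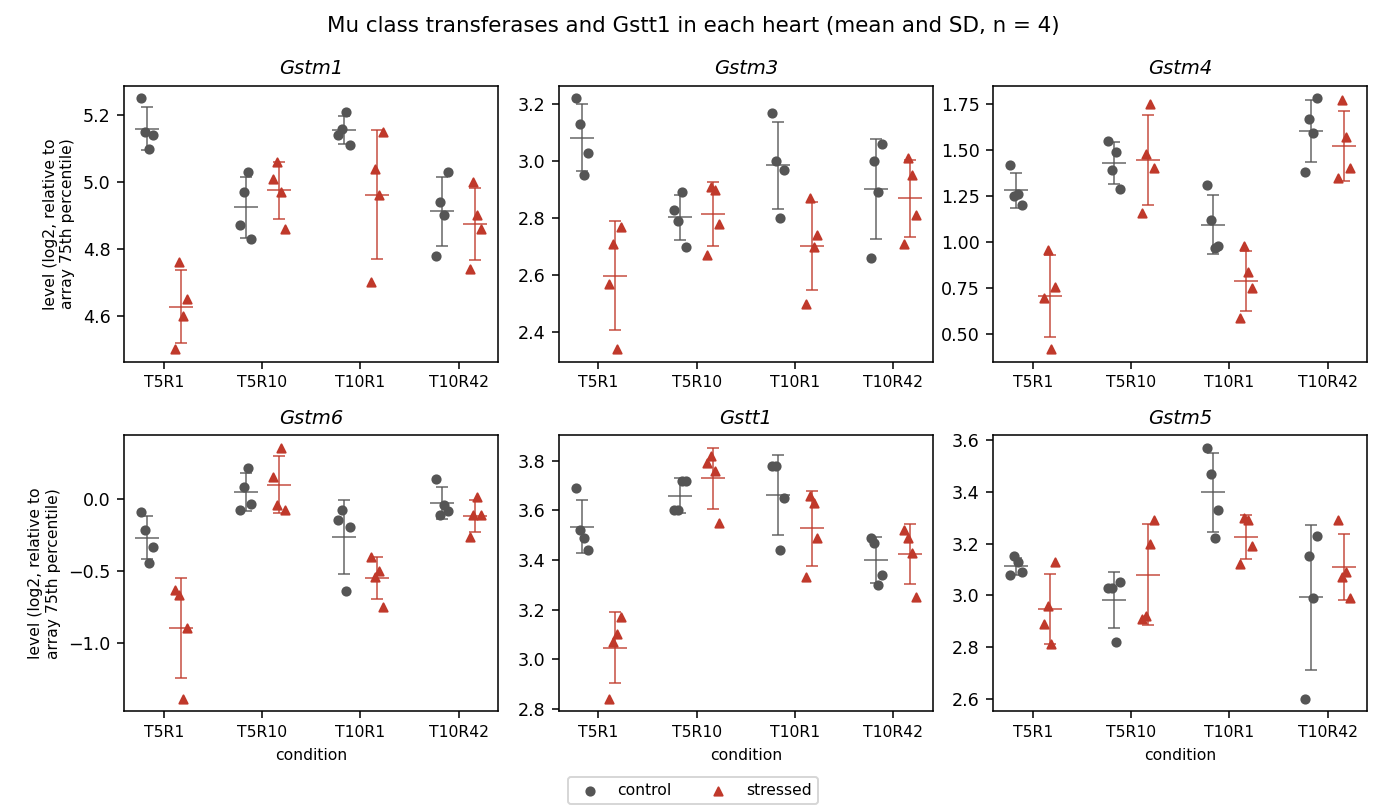
Level in each heart (log2, relative to the array's 75th percentile) of 5 mu class transferases and Gstt1, in 4 control (circles) and 4 stressed hearts (triangles) of each condition; horizontal marks are means and bars are SD. In T5R1 the stressed hearts lie below all controls for 5 of the 6 genes, Gstm5 being the exception, and in T5R10 and T10R42 the groups overlap for all 6.

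Of the alpha class, whose enzymes conjugate lipid peroxidation products such as 4-hydroxynonenal, Gsta2 and Gsta3 fell in T5R1. Gsta3 fell by 0.49 (limma adjusted p = 0.0115), from 3.35, 3.59, 3.40 and 3.45 in controls to 2.61, 3.00, 3.03 and 3.20. The groups did not overlap, but the second Gsta3 probe gave -0.23 and did not pass, and the call was lost without T5R1 stressed replicate 1 (adjusted p = 0.0699). Gsta2 had controls at 0.93, 1.07, 0.72 and 0.98 and stressed hearts at 0.46, 0.44, 0.12 and 0.64, a difference of -0.51 ± 0.17 (limma adjusted p = 0.0486). That call was lost without any of 6 single hearts (T5R1 control replicates 1, 2 and 4 and stressed replicates 1, 2 and 3), and with quantile normalization. Gsta1 gave -0.44 and Gsta4 -0.16, and neither passed.

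The probes for Gsta1 and Gsta2 cannot separate these genes well, and their values are given as those of a pair. The probes match at 46 of 50 aligned bases (92.0%). Their most different stretch of 30 bases is shown because the Gsta pair carries the T10R1 and T10R42 results, with the 3 differing bases in capitals, taken from the array design.
Gsta1 probe, bases 2 to 31: tggcctctaatGgtttgcaattataaaaAG
Gsta2 probe, bases 12 to 41: tggcctctaatTgtttgcaattataaaaTA
On mm9 the Gsta1 probe is at chr9:78090411-78090470 on the plus strand and the Gsta2 probe at chr9:78178856-78178915 on the minus strand.

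The microsomal transferases, membrane proteins of which Mgst3 also reduces lipid hydroperoxides, were measured lower in T5R1 in 3 of 3 genes. Only Mgst3 passed among them, at -0.33 ± 0.10 (limma adjusted p = 0.0338), from 5.77, 5.75, 5.70 and 5.65 to 5.23, 5.33, 5.46 and 5.54. Its second probe gave -0.32. Mgst1 gave only -0.04. With quantile or normexp normalization, the authors' deposited values or median centring, 1 of the 3 genes was measured higher. The Mgst3 call was lost without any of 5 single hearts (T5R1 control replicates 1, 2 and 3 and stressed replicates 1 and 2), with an adjusted p of 0.127 without stressed replicate 1.

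Glutathione synthesis went the other way in 1 gene. Gclm, the regulatory subunit of glutamate-cysteine ligase, rose in T5R1 from -1.17, -1.35, -1.14 and -1.18 in controls to -0.40, -0.62, -0.14 and -0.83 in stressed hearts. All stressed hearts were above all controls, and the difference was 0.71 ± 0.15 (limma adjusted p = 0.0026), which is 1.64-fold. The catalytic subunit Gclc was at 0.48, 0.54, 0.68 and 0.54 in controls and 0.60, 0.54, 0.77 and 0.49 in stressed hearts. Its difference of 0.03 had a 95% interval from -0.16 to 0.23, and that of Gclm ran from 0.40 to 1.03. Whether the subunits differed in their change was not tested. Glutathione reductase (Gsr) was at 1.93, 1.88, 1.81 and 1.70 in controls and 1.78, 1.74, 1.96 and 1.82 in stressed hearts, with overlapping groups. Glutathione synthetase (Gss) gave 0.23 and Gsr -0.01, and neither passed.

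In the thioredoxin system, 0 of 8 genes passed the limma test in T5R1. With quantile normalization and with the authors' deposited values, 1 of the 8 passed and rose. As reported, 3 of the 8 had an unadjusted limma p below 0.05, against 8126 of all 27528 genes. Txn1 (thioredoxin) gave 0.19, Txnrd1 (its reductase) 0.06 and Srxn1 (sulfiredoxin, which repairs overoxidised peroxiredoxins) 0.12. Txnrd1 controls were at 2.76, 2.74, 2.92 and 2.60 and stressed hearts at 2.89, 2.80, 2.74 and 2.84, so the groups overlapped. The 5 peroxiredoxins lay between -0.19 (the mitochondrial Prdx3) and 0.04 (Prdx1).

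Of the peroxide and superoxide enzymes, 3 passed in T5R1. Gpx1, the main cytosolic glutathione peroxidase, rose from 5.01, 5.03, 5.11 and 4.88 to 5.45, 5.34, 5.86 and 5.40, a difference of 0.51 ± 0.16 (limma adjusted p = 0.0345). Sod3, the secreted extracellular superoxide dismutase, rose from 4.09, 3.94, 4.01 and 3.84 to 4.41, 4.16, 4.17 and 4.21, a difference of 0.27 ± 0.09 (limma adjusted p = 0.0374). Sod1, the cytosolic enzyme, fell from 7.07, 6.96, 6.96 and 6.92 to 6.68, 6.67, 6.79 and 6.79, a difference of -0.24 ± 0.07 (limma adjusted p = 0.0249).

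None of these 3 genes overlapped between groups. All 3 calls were lost without T5R1 stressed replicate 1 (adjusted p = 0.064, 0.151 and 0.0783 for Gpx1, Sod3 and Sod1), and the Sod1 call was also lost with quantile normalization, where its change was -0.13. Leaving out T5R1 control replicate 1 or stressed replicate 2 also ended the Sod1 call. For Gpx1 the same held for control replicates 1, 2 and 4 and stressed replicate 3, and for Sod3 for control replicates 2, 3 and 4 and stressed replicate 4. The mitochondrial Sod2 gave -0.15, Gpx4 (which acts on membrane lipid hydroperoxides) -0.18, the plasma form Gpx3 0.03 and Cat -0.13, and none passed. Cat controls were at 3.01, 3.45, 3.11 and 2.94 and stressed hearts at 2.60, 2.94, 3.23 and 3.20, so the groups overlapped. A second Cat probe gave 0.14 in T5R1 and did not pass, so the direction of Cat is not settled. Hmox1, a stress-induced NRF2 target, had controls at 0.61, 0.80, 0.47 and 0.35 and stressed hearts at 1.44, 1.12, 0.67 and 0.36, a difference of 0.34 ± 0.20 that did not pass. Its second probe gave -0.40 and did not pass either, so Hmox1 has no settled direction here. Without T5R1 stressed replicate 1, 7 of the 41 genes passed in place of 14: Gclm rose, and Gstm1, Gstm2, Gstm3, Gstm4, Gstm6 and Gstt1 fell.

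**Figure D3:**
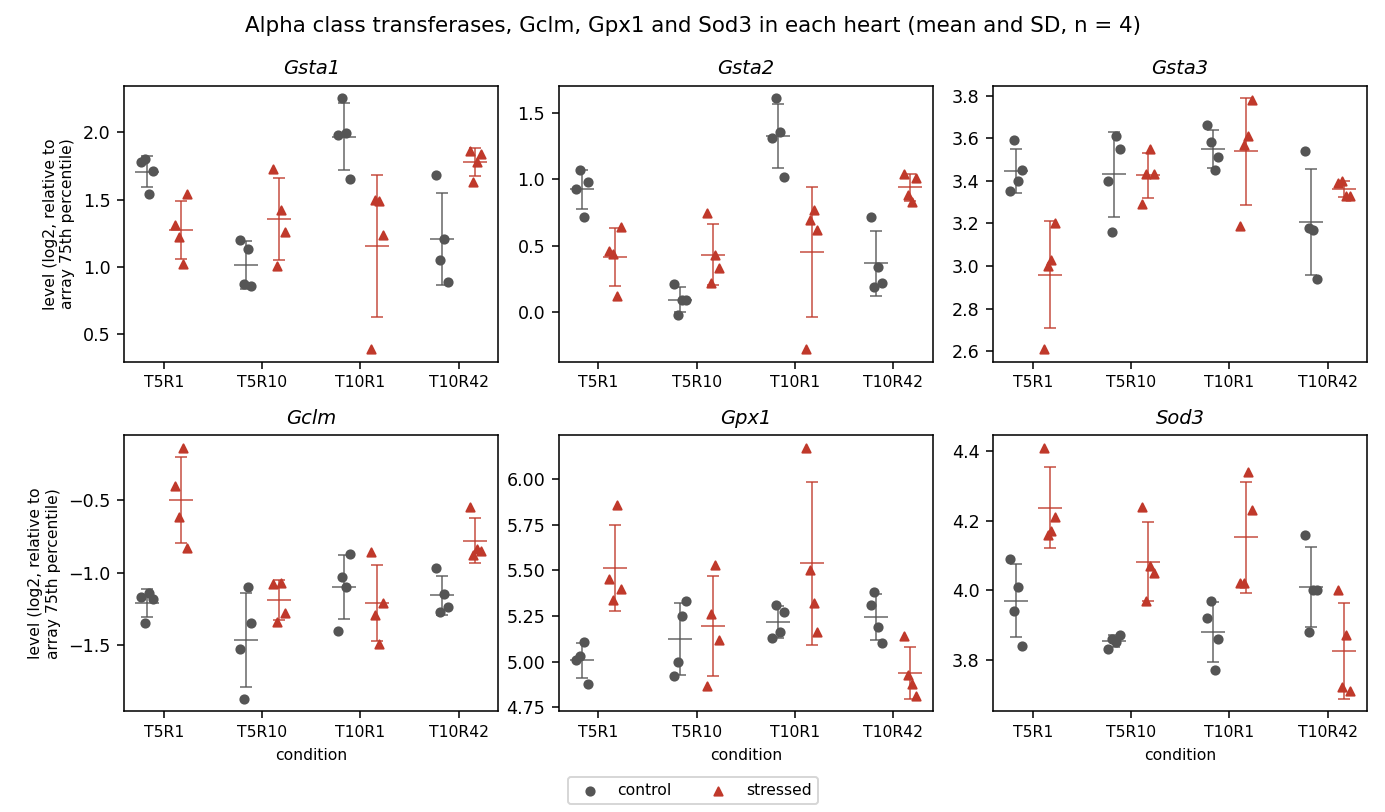
Level in each heart (log2, relative to the array's 75th percentile) of 3 alpha class transferases, Gclm, Gpx1 and Sod3, in 4 control (circles) and 4 stressed hearts (triangles) of each condition; horizontal marks are means and bars are SD. Gsta1 and Gsta2 are lower in the stressed hearts of T10R1, and their control levels are lower in T5R10 and T10R42 than in T5R1 and T10R1.

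Markers of other cell types moved in the same condition, and in a bulk tissue fewer cells of a type and less RNA per cell cannot be told apart. In T5R1, 6 of 10 fibroblast markers, 6 of 10 macrophage markers and 3 of 5 neutrophil markers tested rose. Measured values were lower in 2 of the neutrophil markers and 1 of the macrophage markers. The summed fibroblast level was 8.45 to 8.53 in controls and 8.86 to 9.75 in stressed hearts, and the summed macrophage level 5.01 to 5.22 and 5.25 to 5.95. T5R1 stressed replicate 1, without which 7 genes passed in place of 14, had the highest fibroblast (9.75), macrophage (5.95) and neutrophil (3.23) levels and the lowest cardiomyocyte (12.43) and endothelial (8.10) levels of the 8 hearts. Cardiomyocyte markers were measured lower in 10 of 10 (median -0.24, only Tnni3 called), with a summed level of 12.87 to 12.95 in controls and 12.43 to 12.93 in stressed hearts. Adipocyte markers were measured lower in 9 of 9 tested (median -1.35, none called), from 5.49 to 5.95 in controls and from 1.75 to 5.71 in stressed hearts. Hepatocyte markers, which report on tissue rich in alpha transferases, were measured lower in 7 of 7 tested (1 called), with a summed level of 3.89 to 4.35 in controls and 3.53 to 4.16 in stressed hearts. The part of these cell types in the changes of the 41 genes was not tested.

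Gpx1 can be set beside the erythroid markers, since red cell precursors are rich in it. In T5R1 the summed erythroid level was 11.41 to 11.61 in controls and 11.25, 11.57, 12.26 and 11.73 in stressed replicates 1 to 4. Stressed replicate 3 was the highest in both Gpx1 (5.86) and the erythroid level, while stressed replicate 1, with the next highest Gpx1 level (5.45), was below all controls in the erythroid level. Over the 4 conditions T5R1, T5R10, T10R1 and T10R42 the Gpx1 differences were 0.51, 0.07, 0.32 and -0.31, and the median differences of the 8 erythroid markers tested were 0.80, -0.16, 0.37 and -0.82. The T10R1 value leans on stressed replicate 1, at 6.17 in Gpx1 with the other stressed hearts at 5.5, 5.32 and 5.16. That heart also had the highest erythroid level in T10R1 (11.92). Erythroid markers rose in 3 of 8 in T5R1 and passed in none of the other conditions. The part of red cells in the Gpx1 values was not tested.

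After 10 days of stress and 1 day of rest, the Gsta1 and Gsta2 pair was lower in stressed hearts and no other gene of the set passed. The 2 genes are 4.88% of the set, against 1.13% of all genes tested in T10R1 (0.36% in the lower direction). Their probes cannot be separated well, so the 2 calls may be 1 signal and that share is not one of independent genes. Gsta2 had controls at 1.31, 1.61, 1.36 and 1.02 and stressed hearts at -0.28, 0.69, 0.77 and 0.62. Gsta1 had controls at 1.98, 2.25, 1.99 and 1.65 and stressed hearts at 0.39, 1.5, 1.49 and 1.24. In both genes the stressed hearts lay below all controls, with replicate 1 far below the others. The differences were -0.87 ± 0.17 for Gsta2 (1.83-fold lower, limma adjusted p = 0.0114) and -0.82 ± 0.20 for Gsta1 (1.76-fold lower, limma adjusted p = 0.0366).

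Without T10R1 stressed replicate 1, Gsta2 gave -0.63 (adjusted p = 0.048) and Gsta1 -0.56 (adjusted p = 0.176). Leaving out T10R1 control replicate 2 ended both calls, and control replicate 1 or 3 or stressed replicate 4 ended that of Gsta1. Fitted on the 8 arrays of T10R1 alone, 0 of 41 genes passed the limma test, and with array quality weights 9 fell. With the authors' deposited values, Sod3 also rose in T10R1, and with quantile normalization Gsta2 fell, Sod3 rose and Gsta1 did not pass. Of 7 hepatocyte markers, 5 were measured higher in T10R1 and none was called. Their summed level was 4.04 to 4.32 in controls and 3.61 to 4.68 in stressed hearts, and their part in the Gsta values was not tested.

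The rest of the set in T10R1 was measured mostly lower without passing. Measured values were lower in 35 of the 41 genes, with a median of -0.17 against 0 over all genes tested. Of the 41, 17 had an unadjusted limma p below 0.05, against 3614 of all 27528. Stressed and control hearts did not overlap in 14 genes (34.1%), against 9.78% of all genes tested. The 7 mu genes were all measured lower, from -0.35 (Gstm7) to -0.17 (Gstm5), and none passed. Gstz1, which also takes part in tyrosine breakdown, came closest to passing, at -0.33 (limma adjusted p = 0.0639). Gclm, higher in T5R1, had overlapping groups here: its controls were at -1.40, -1.03, -1.10 and -0.87 and its stressed hearts at -0.86, -1.29, -1.49 and -1.21.

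The genes of synthesis and thioredoxin reduction were also measured lower in T10R1 without passing. Gclc had controls at 0.64, 0.79, 0.93 and 0.91 and stressed hearts at 0.51, 0.59, 0.61 and 0.54, which did not overlap, and its difference of -0.26 had a limma adjusted p of 0.211. Prdx1, the major cytosolic peroxiredoxin, gave -0.21 with the probe used and -0.41 ± 0.09 with its second probe, which passed over probes (limma adjusted p = 0.0199). Srxn1 controls included 1 heart at 3.33 while the other 3 lay between 2.36 and 2.60, and its stressed hearts were at 2.33, 2.62, 2.39 and 2.39. In the same condition 7 of 10 fibroblast markers and 1 of 10 macrophage markers rose, and cardiomyocyte and adipocyte markers were measured lower in 10 of 10 and 9 of 9 (medians -0.13 and -1.60).

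After 10 days of rest (T5R10), 0 of 41 genes passed the limma test, against 0.0763% of all genes tested. An unadjusted limma p below 0.05 was found for 7 of the 41 and for 3842 of all 27528. Measured values were higher in 36 of the 41, with a median of 0.10 against -0.02 over all genes tested. The changes lay between -0.17 (Hmox1) and 0.34 (Gsta1 and Gsta2). The 6 mu genes that fell in T5R1 gave between 0.01 (Gstm3) and 0.18 (Gstm7). Gstm1 had controls at 4.87, 4.97, 5.03 and 4.83 and stressed hearts at 5.01, 5.06, 4.97 and 4.86, so the groups overlapped.

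After 42 days of rest (T10R42), 0 of 41 genes passed the limma test as well, against 0.897% of all genes tested. The unadjusted limma p was below 0.05 for 8 of the 41 and for 5165 of all 27528, a similar share. Measured values were higher in 25 of the 41, with a median of 0.05 against -0.03 over all genes tested. Stressed and control hearts did not overlap in 5 of the 41 (12.2%), near the 11.4% of all genes tested. Gsta2 had controls at 0.72, 0.19, 0.34 and 0.22 and stressed hearts at 1.04, 0.88, 0.83 and 1.01. The groups did not overlap, and the difference of 0.58 ± 0.17 missed the threshold (limma adjusted p = 0.0799), as did that of Gsta1 at 0.57 (adjusted p = 0.117). Gclm had controls at -0.97, -1.27, -1.15 and -1.24 and stressed hearts at -0.55, -0.88, -0.84 and -0.85, again without overlap and without passing (0.38, limma adjusted p = 0.177). Erythroid markers were measured lower in 8 of 8 in this condition, where Gpx1 gave -0.31.

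**Figure D4:**
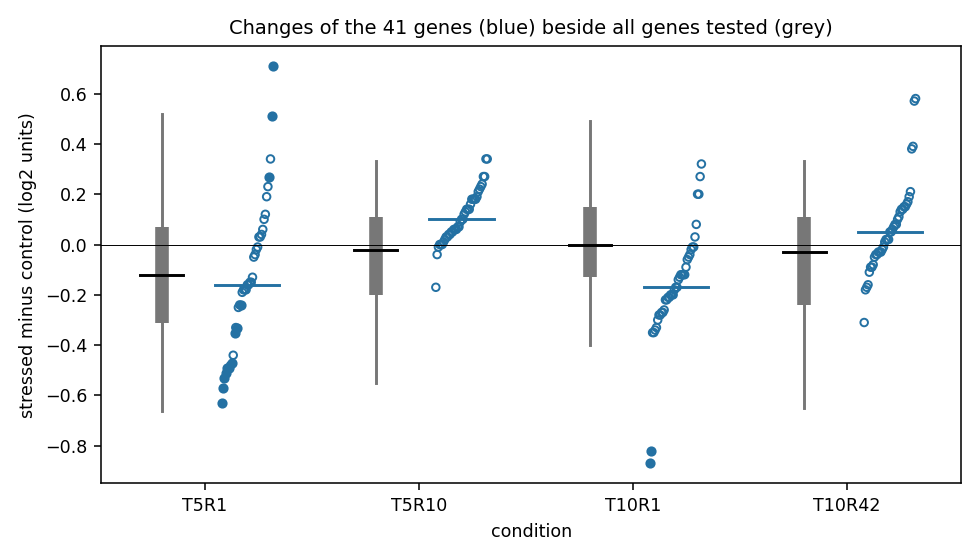
Changes (log2 units, stressed minus control) of the 41 genes in each condition (blue points, filled where the adjusted p is below 0.05, with a blue line at their median) beside all 27528 genes tested (grey; thick bar from the 25th to the 75th percentile, thin line from the 5th to the 95th, black line at the median). The median of the set lies below that of all genes in T5R1 and T10R1 and above it in T5R10 and T10R42.

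The stress effect itself was compared between conditions, as the difference of the stressed minus control differences. From 1 to 10 days of rest after 5 days of stress, 2 of 41 genes differed (4.88%, against 2.49% of all genes tested). They were Gstm1, by 0.58 ± 0.12 (limma adjusted p = 0.00719), and Gstt1, by 0.56 ± 0.13 (limma adjusted p = 0.0191). Both had fallen in T5R1 and lay within 0.07 of their controls' mean in T5R10. Leaving out 1 heart gave 1 to 7 genes in place of 2, with 7 without T5R1 stressed replicate 4, 5 without T5R10 stressed replicate 2, 4 without T5R10 stressed replicate 1 or T5R1 stressed replicate 2, and 1 without T5R1 stressed replicate 1. Without the 3 arrays marked for evaluation, neither passed, and the Gstt1 call was also lost without T5R1 stressed replicate 1 (adjusted p = 0.0579). The other 8 transferases and Sod1 that fell in T5R1 differed by amounts that did not pass.

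From 1 to 42 days of rest after 10 days of stress, 5 of 41 genes differed (12.2%, against 4.12% of all genes tested). The Gsta1 and Gsta2 pair counts as 2 of these 5 and may be 1 signal. Gsta2 differed by 1.45 ± 0.24 (limma adjusted p = 0.00527) and Gsta1 by 1.39 ± 0.28 (limma adjusted p = 0.012), from lower than controls at 1 day to measured higher at 42 days. Prdx1 and Prdx6, a peroxiredoxin that also has phospholipase activity, differed by 0.42 and 0.39, and Sod3 by -0.45 (limma adjusted p = 0.032, 0.0495 and 0.0384). Prdx1 controls and stressed hearts had means 0.21 apart in either direction: in T10R1 controls were at 5.65, 5.56, 5.46 and 5.47 and stressed hearts, all lower, at 5.32, 5.43, 5.30 and 5.27. In T10R42 controls were at 5.16, 5.32, 5.41 and 5.44 and stressed hearts, all higher, at 5.59, 5.47, 5.6 and 5.51. The Prdx6 result rests on the probe used, since the mean over its probes gave -0.0016. Of the 16 hearts of both conditions, leaving out 1 ended the call for 9 in Prdx1, 13 in Prdx6 and 10 in Sod3, and for none in Gsta1 and Gsta2. The count of 5 became 2 to 6 in this way, and 2 when only the arrays of both conditions were fitted.

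Part of the Gsta contrast lay in the controls. Gsta2 controls had a mean of 0.93 in T5R1 and 1.32 in T10R1, and of 0.09 in T5R10 and 0.37 in T10R42, while the stressed means were 0.42, 0.45, 0.44 and 0.94. Gsta1 showed the same order, with control means of 1.71, 1.97, 1.02 and 1.21 for T5R1, T10R1, T5R10 and T10R42. Controls of different conditions differed in slide, in their days of schedule and, for T10R1, in scan day. These levels cannot be told apart from such effects, and they were not tested.

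Between 10 and 5 days of stress, both with 1 day of rest, 0 of 41 genes differed by the limma test (0.592% of all genes tested did). Of the 41, 9 had an unadjusted limma p below 0.05, against 4907 of all 27528. The nearest to the threshold was Gclm, whose effect was 0.83 lower after 10 days of stress (difference -0.83 ± 0.22, 95% interval -1.27 to -0.39, limma adjusted p = 0.0613). A fall that passed in one of these conditions and not in the other, as for 6 mu genes, was therefore not shown to differ between them.

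Across the 4 conditions, 26 of the 41 genes passed in none, 14 in 1 and 1 (Gsta2) in 2. Gstt3 was measured higher in 4 of 4 conditions (0.10 to 0.20) and Gpx4 lower in 4 of 4 (-0.18 to -0.03), and neither passed in any. Within each slide row, which held 2 stressed and 2 control hearts of a condition, all 14 changes in T5R1 and both in T10R1 had the same sign in both rows. Stressed and control hearts did not overlap in any of these genes, so the same sign was bound to follow and adds no support. For Gstm1 in T5R1 the rows gave -0.44 and -0.62, for Gclm 0.54 and 0.88, and for Gsta2 in T10R1 -0.66 and -1.09.

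NRF2 binds the antioxidant response element, whose core is TGACNNNGC. RefSeq promoters of build GRCm38.p6, from 250 bases before to 50 after the start, were held for 34 of the 41 genes. Gsta4, Gstt2, Gclc, Gsr, Prdx6, Sod3 and Hmox1 had none, so these genes were not searched. The core on either strand was found for 9 of them (26.5%), against 14% of the 27025 genes with a promoter: Gsta3, Gstm5, Gstm7, Mgst1, Gclm, Txnrd1, Srxn1, Prdx1 and Sod1. Counted over promoters in place of genes, 9 of 47 held it (19.1%), against 12.4% of 32851. Of the 9, Gclm rose in T5R1, Gsta3, Gstm7 and Sod1 fell, and the other 5 did not pass, so a match in these short windows did not go with 1 direction. Matches are descriptions of these letters and not of binding.

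The 250 bases upstream of the start are shown for the gene that rose and for a transferase that fell, with the core in capitals. They are at chr3:122245307-122245556 and chr1:21240335-21240584, both on the plus strand. The match is on the minus strand in Gclm and on the plus strand in Gsta3.
Gclm: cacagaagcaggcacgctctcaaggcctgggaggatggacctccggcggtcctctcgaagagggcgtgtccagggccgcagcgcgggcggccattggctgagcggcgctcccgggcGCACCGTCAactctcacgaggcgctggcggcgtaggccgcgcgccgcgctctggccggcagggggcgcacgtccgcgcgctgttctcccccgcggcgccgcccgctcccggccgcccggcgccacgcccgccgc
Gsta3: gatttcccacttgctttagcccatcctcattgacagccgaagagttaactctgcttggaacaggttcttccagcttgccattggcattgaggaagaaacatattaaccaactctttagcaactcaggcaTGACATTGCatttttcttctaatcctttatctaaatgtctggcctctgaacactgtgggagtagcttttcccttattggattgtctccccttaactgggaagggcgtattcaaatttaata

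Further genes of the pathway were counted from lists outside the 41, to be read against the 13.7% of all genes tested that passed in T5R1 and the 1.13% in T10R1. Among NRF2 and its regulators, 0 of 11 passed the limma test in T5R1. An unadjusted limma p below 0.05 was found for 2 of the 11, a smaller share than the 8126 of all 27528. They were Keap1, the inhibitor that marks NRF2 for breakdown, at -0.20 and the related factor Nfe2l1 at -0.24. Among other NRF2 targets, 4 of 17 rose and 1 fell in T5R1 (29.4% called, medians -0.08 for the list and -0.12 for all genes): Abcc3, an exporter of glucuronides and glutathione conjugates, by 0.81, Ugdh by 0.52, Blvrb by 0.46 and the ferritin light chain gene Ftl1 by 0.40, while the ferritin heavy chain gene Fth1 fell by 0.24. Nqo1, a classical NRF2 target, rose by 0.33 in T10R42 (limma adjusted p = 0.0454), where its list had 1 of 17 called, and was not called in the other conditions. Its effect differed by 0.64 ± 0.11 between 42 and 1 days of rest after 10 days of stress (limma adjusted p = 0.00816). In T10R1, Abcc3 and the carbonyl reductase gene Cbr3 rose, by 0.55 and 0.46.

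Of the further transferase-like genes tested, 2 of 7 rose and 3 fell in T5R1 (71.4% called). Clic1, a chloride channel protein with a glutathione transferase fold, rose by 0.52. The other was Hpgds, the hematopoietic prostaglandin D synthase, which was well above background on 4 of 4 stressed arrays and on 1 of 4 control arrays, so no size is given for it. Gsto2, Gstp2 and the prostaglandin E synthase gene Ptges fell by 0.56, 0.41 and 0.36. In glutathione turnover and cysteine supply, 2 of 15 fell in T5R1 (13.3%, near the share of all genes), Cbs of the transsulfuration pathway by 0.71 and Oplah, which recycles 5-oxoproline, by 0.31, and Dpep1 rose in T10R1 by 0.56.

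Among further thioredoxin and glutaredoxin genes, 3 of 17 rose and 3 fell in T5R1 (35.3% called). Txnl1 and Txndc5 rose by 0.48 and 0.35, and Glrx3 and the mitochondrial reductase gene Txnrd2 fell by 0.34 and 0.32. Of further peroxidases and selenoproteins, 2 of 14 rose (14.3%, also near that share), the peroxidases Gpx7 and Gpx8 of the endoplasmic reticulum, by 0.73 and 0.35. Both are separate genes from Gpx1, Gpx3 and Gpx4.

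Genes that supply NADPH had 1 of 15 higher and 4 lower in T5R1 (33.3% called). Mthfd2 of mitochondrial folate metabolism rose by 1.31, and Aldh1l1, Idh2 and Me3 fell by 0.65, 0.48 and 0.39. Of oxidant sources, 3 of 15 rose (20% called), the phagocyte NADPH oxidase genes Cybb, Rac2 and Ncf4 by 1.15, 0.71 and 0.58. In the same condition 6 of 10 macrophage and 3 of 5 neutrophil markers rose, and the part of these cells was not tested. Nox4, an oxidase of fibroblasts, endothelium and cardiomyocytes, rose in T10R1 by 0.93. Of metallothioneins and iron genes, Mt2 rose by 1.05 and Hamp2 fell by 0.73 in T5R1, 2 of 11 called (18.2%). In T5R10, none of these 9 lists had a gene called.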

How the data were processed

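The scanner software, Agilent Feature Extraction 10.7.3.1 per the file headers, subtracted background from each deposited spot intensity and detrended it. The deposited files also carry mean and background signals, from which the normexp alternative was made, and flags (0 or 1) that mark bright, saturated and outlier spots. The authors' deposited log2 values, normalised within slides as far as they show, served as an alternative. Of the 62976 spots of an array, 3671 control spots were dropped. Single readings flagged as outliers were also dropped, 5470 in total over the 32 arrays. Spots were then averaged by probe, and the log2 of the 75th percentile over all spots other than controls was subtracted array by array. A probe entered if at least 3 of 4 arrays in some group showed it well above background and at most 4 arrays lacked it. The brightest probe stood for a gene. Names came from RefSeq accessions (assembly GRCm38.p6) for 26413 probes, otherwise from the array, and probe positions from the mm9 array design.

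Group means for the 8 groups were fitted over 32 arrays with limma 3.58.1 in R 4.3.3, with the data.table package in version 1.17.8, with 24 residual and 2.28 prior degrees of freedom. Tests were two-sided over 27528 genes with Benjamini-Hochberg adjustment, intervals are 95%, and the fit was tested on simulated data. With 4 arrays a group, array number limits the precision. Values by heart were given for called genes with the smallest adjusted p (up to 5 a direction and condition) and for Hmox1, Gclc, Gclm, Gsr, Txnrd1, Srxn1 and Cat. Those of Gsta3, Gstm5, Mgst3, Prdx1 and Sod1 were chosen after they were seen. From further lists up to 4 called genes were named, or 2 where none was called, and Fth1 and Ptges were added after their values were seen. The members and lists were chosen with earlier results of these data known. Alternatives were quantile and normexp normalization, the authors' values, other filters, probes, blocks and arrays, array weights and leaving out hearts. Another 2 scalings were chosen after seeing the data.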

Additional observations from a re-analysis of the deposited data

Results flagged for a closer look

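Single hearts lay far from the rest of their group in 4 of 128 groups of 4 examined by the ratio of the gap to the range (Dixon, 95%), and chance gives about 1 in 20. In Gclm, T5R1 control replicate 2 was at -1.35 with the nearest at -1.18 (ratio 0.835), and T10R42 stressed replicate 1 at -0.55 with the nearest at -0.84 (0.876). In Gsta2, T10R1 stressed replicate 1 was at -0.28 with the nearest at 0.62 (0.858). In Hmox1, T10R42 control replicate 1 was at 1.29 with the nearest at 0.72 (0.967).

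The stress effect differed between conditions in 7 tests of the difference itself. Between 10 and 1 days of rest after 5 days of stress it differed by 0.58 for Gstm1 and 0.56 for Gstt1. Between 42 and 1 days of rest after 10 days of stress it differed by 1.39 for Gsta1, 1.45 for Gsta2, 0.42 for Prdx1, 0.39 for Prdx6 and -0.45 for Sod3.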

How the results depend on the processing

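Of 23 gene results, 6 kept direction and call under every alternative run: Gstm1, Gstm3, Gstt1 and Gclm in T5R1, and the 42 against 1 day differences of Gsta1 and Gsta2. Over 539 gene values, 113 lost the call and 1 reversed (Prdx6, -0.00158 with the mean over probes). Leaving out single hearts gave 7 to 17 genes called in T5R1, 0 to 0 in T5R10, 0 to 2 in T10R1 and 0 to 0 in T10R42. For the differences between conditions it gave 1 to 7 (T5R10 against T5R1), 2 to 6 (T10R42 against T10R1) and 0 to 2 (T10R1 against T5R1). With only the arrays compared, T5R1 gave 8, T10R1 0 and T10R42 against T10R1 2. Without a filter on dim probes T10R1 gave 1 and T10R42 against T10R1 2. With array quality weights T10R1 gave 9, T10R42 2 and T10R1 against T5R1 1. For T5R10 against T5R1, quantile normalization and the authors' values gave 1, the mean over probes 4, and leaving out the arrays marked for evaluation 0. Quantile normalization gave 3 for T10R42 against T10R1, and a slide row block or median centring gave 1 for T10R1 against T5R1. The cause was not tested beyond the smaller sets of arrays or larger sets of genes these settings imply. With the replicate number as a block, 13 genes passed in T5R1, 0 in T5R10, 2 in T10R1 and 0 in T10R42. Same-numbered deviations correlated from -0.266 to 0.214 over 16 pairs, 5 above 0.1, and 7 of 16 stressed hearts correlated best with their own number. The replicate number also fixed the slide row, and each group held 4 hearts. This check therefore cannot settle whether the numbers pair the animals.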
